A study of Drosophila melanogaster with 12 samples.

Results

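Peroxiredoxins, thioredoxins, superoxide dismutases and catalase remove superoxide and peroxides from animal cells. Their genes were followed here in fruit flies (Drosophila melanogaster) with a knockdown of Sps2, the gene of selenophosphate synthetase 2. Of 10 genes listed (Prx6c, Prx3, Prx5, Sod1, Sod2, Sod3, Cat, TrxT, dhd and Trxr1), 8 had a probe set to which the platform annotation gives that symbol alone. These 8 genes had 9 probe sets among 18769 in the series. All 8 genes were among the 10426 genes that passed the filter on low values. Prx5 and Sod1 were not analysed here.

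The study crossed genotype with developmental stage on 12 Affymetrix arrays, with 3 biological replicates in each of 4 groups. The groups were adults with the SPS2 knockdown, adults of the wild type, larvae with the SPS2 knockdown and larvae of the wild type. All were raised on the same cornmeal and yeast food. The labels do not state the construct behind the knockdown, the wild-type line, sex, exact age or body part. A difference in genetic background between the lines therefore cannot be told apart from the knockdown, and "knockdown effect" below means the difference between these groups. Each value is a MAS5 signal, the brightness of a probe set scaled by the authors within each array, deposited as log2 and given below in linear form unless called log2. In whole-animal or other bulk RNA, fewer cells of a type and less RNA per cell cannot be told apart.

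Superoxide dismutases turn superoxide into hydrogen peroxide, which catalase and the peroxiredoxins then reduce. Thioredoxins pass electrons to typical peroxiredoxins and to other oxidised proteins, and thioredoxin reductase recharges them from NADPH. The fly has no glutathione reductase, and its thioredoxin reductase works without selenocysteine. The product of Sps2, selenophosphate, supplies the selenium of selenocysteine.

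The Sps2 signal followed the labels on all arrays. It was 138, 138 and 113 in adult knockdown, against 902, 878 and 920 in adult wild type, 6.97-fold lower (limma adjusted p = 2.66e-08). In larvae it was 188, 138 and 149 with the knockdown, against 787, 718 and 830 in the wild type, 4.95-fold lower (limma adjusted p = 1.37e-07).

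Stage markers are given first here, although they were chosen with earlier results of these data known. The 5 adult markers measured of 9 listed (fln, Act88F, Yp1, Yp2 and Yp3) were all higher in adult wild type than in larval wild type. Yp1, Yp2 and Yp3 are also among the ovary markers below, so these lists are not separate. Of 9 larval markers, the 6 measured had a summed signal of 130 to 332 in larval knockdown, against 962, 17742 and 16785 in larval wild type arrays 1, 2 and 3. Mean signals of 5 of the 6 lay below the 40th percentile of the array in larval knockdown, against 3 of the 6 in larval wild type. Most of the sum was Lsp2, a larval serum protein of the fat body, named after its values were seen. Lsp2 stood at 225, 127 and 77.6 in larval knockdown, against 881, 17318 and 16597 in larval wild type. In adults, where such markers are normally low, the larval marker sum was 1465 to 1673 with the knockdown, against 175 to 398 in the wild type. Larval wild type array 1 stood apart from the other two, and results that change without it are given both ways. Exact age is not in the labels at either stage, so age and genotype cannot be told apart in the larval or the adult comparison. The log2 gap between 3′ and 5′ control probe sets, a sign of RNA or labelling quality, averaged 3.70 ± 0.06 in knockdown larvae, against 3.51 ± 0.11 in wild type larvae (SD, n = 3 each). In adults it averaged 2.44 ± 0.07 with the knockdown and 2.42 ± 0.07 in the wild type, so it separated the stages. The gap also differed within larvae, at 3.63, 3.71 and 3.76 on knockdown arrays 1, 2 and 3, against 3.64, 3.44 and 3.45 in the wild type. Its part in the results was not tested.

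Each comparison was tested with limma across 12827 probe sets, and a probe set was called at an adjusted p under 0.05. In adults, 4 of the 8 genes were called higher in the knockdown (Prx6c, Prx3, Sod3 and Trxr1) and 1 lower (TrxT). Over all tested probe sets, 13.6% were called higher and 15.4% lower in adults. In larvae, 4 genes were called higher (Prx6c, Prx3, Sod2 and TrxT) and 2 lower (Cat and Sod3), against 15.0% called higher and 10.7% called lower of all tested probe sets. The median log2 change of the 8 genes was 0.17 in adults and 0.14 in larvae, beside -0.047 and 0.047 over all tested genes. The knockdown effect differed between adults and larvae for 3 genes (TrxT, Sod3 and Cat), against 20.8% of tested probe sets. Only Prx6c and Prx3 were called in the same direction at both stages. With any 1 of the 12 arrays left out, 3 to 6 genes were called in adults, 4 to 5 in larvae and 2 to 4 for the difference.

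**Figure D1:**
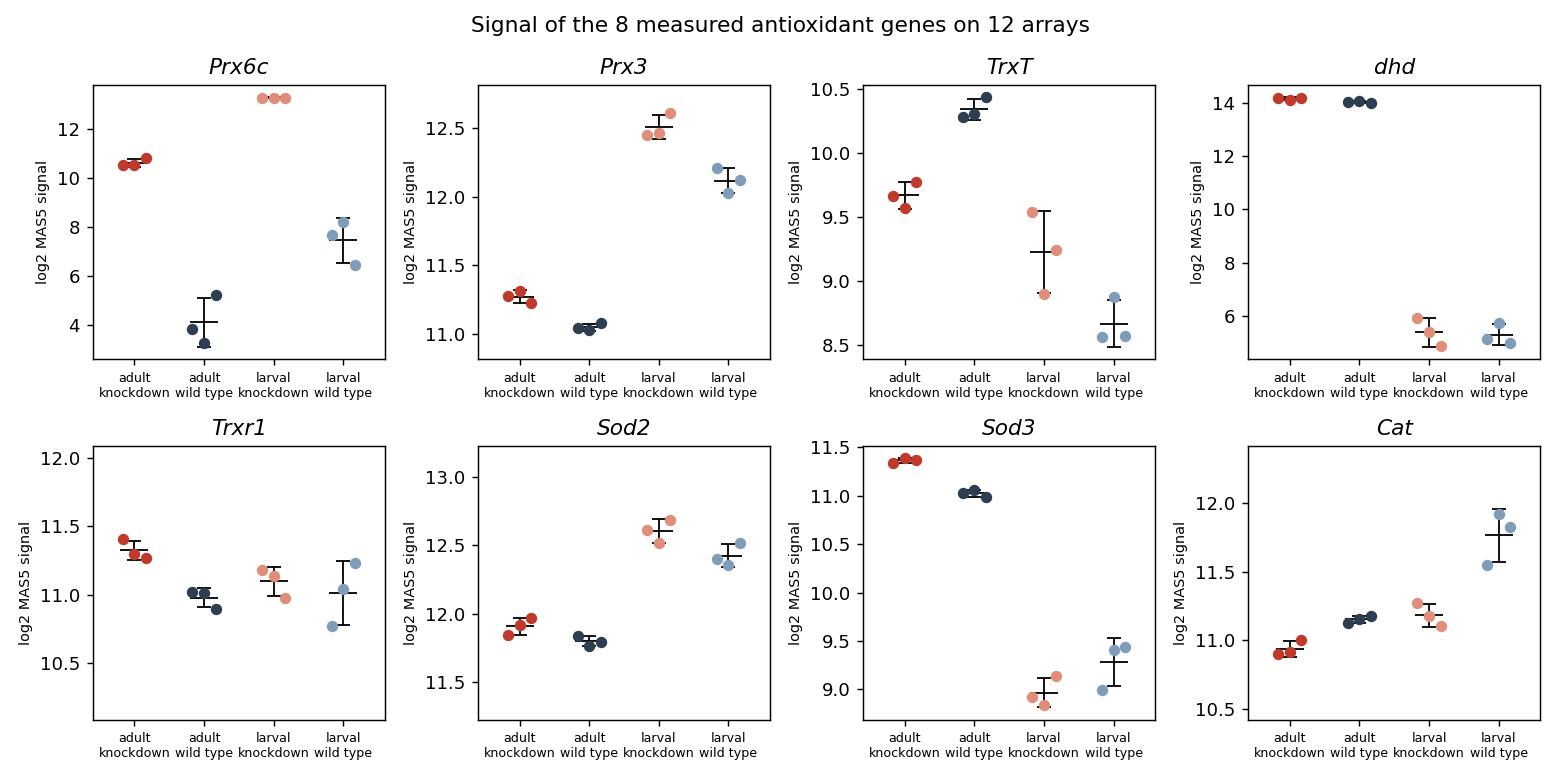
Log2 MAS5 signal (y axis) of the 8 measured genes in the 4 groups (x axis). Each point is an array, the bars are the mean and SD of 3 arrays, and each panel has its own y range, so heights compare within a gene only. Prx6c is far above wild type in both knockdown groups, and dhd differs by stage and little by genotype.

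Prx6c, a peroxiredoxin of the Prx6 class, showed the widest gap between genotypes of the 8 genes. Its signal was 1494, 1512 and 1827 in adult knockdown, against 14.7, 9.81 and 37.7 in adult wild type. All 3 adult wild type values lay below the 40th percentile of their own array, which ran from 34.2 to 41.9 over the 12 arrays, so the adult fold is a bound. In larvae the signal was 9871, 10108 and 10085 with the knockdown, against 209, 303 and 88.0 in the wild type. No knockdown array came near a wild type array at either stage, and the knockdown arrays of a stage lay close together while the wild type arrays spread. The SD of the log2 signal was 0.16 in adult knockdown and 1.00 in adult wild type, and 0.019 in knockdown larvae against 0.92 in wild type larvae (n = 3 each). The wild type arrays were also far dimmer at each stage, so genotype and signal level cannot be told apart in this spread.

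Prx6c was at least 39.9-fold higher in adult knockdown, taken against the 40th percentile (limma adjusted p = 1.01e-06). The fitted adult log2 change of 6.51 ± 0.46 (SE) rests on the wild type values below that percentile and is no estimate of size. In larvae it was 56.5-fold higher, with a log2 change of 5.82 ± 0.46 (limma adjusted p = 2.80e-06). The fitted adult effect minus the larval one was 0.69 ± 0.65, which rests on the same low values and did not pass the test (limma adjusted p = 0.487). With an offset of 64 added before the logarithm, that difference became -1.03 and passed (limma adjusted p = 0.0264), so its direction depends on how the low wild type signals are treated. From high to low, the order of levels was larval knockdown, adult knockdown, larval wild type and adult wild type, with no overlap between neighbours.

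A further probe set is annotated to Prx6b, CG12896 and Prx6c together and was assigned to no gene. Its signal was 1847, 1802 and 2057 in adult knockdown, against 1494, 1455 and 1492 in adult wild type, without overlap. In larvae it was 2479, 2665 and 2333 with the knockdown, against 2108, 2630 and 2669 in the wild type, where the groups overlapped. The log2 change was 0.36 ± 0.087 in adults (limma adjusted p = 0.00896) and 0.020 ± 0.087 in larvae (limma adjusted p = 0.897). Without larval wild type array 1 the larval value was -0.090. The difference between stages was 0.34 (limma adjusted p = 0.0714), and it passed without that array (0.45, limma adjusted p = 0.00663). It also passed under quantile normalization (limma adjusted p = 0.0270), median centring (0.00283) and centring on the tested probe sets (0.0222). The Prx6c change is therefore a measurement of the probe set annotated to Prx6c alone, and the shared probe set did not show a change of that size at either stage. Why they differ was not tested.

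**Figure D2:**
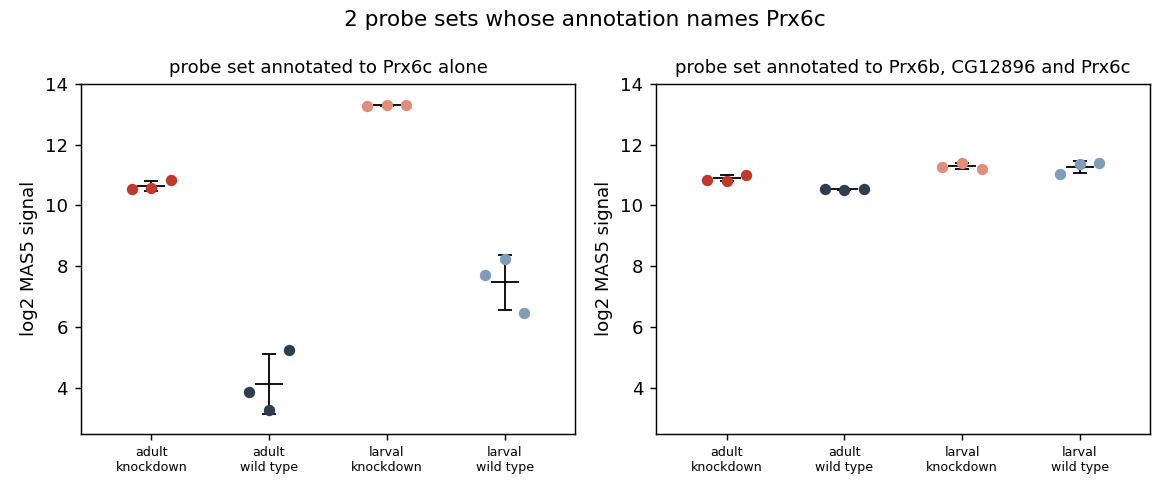
Log2 MAS5 signal (y axis, same range in both panels) by group (x axis) for the probe set annotated to Prx6c alone and for the one annotated to Prx6b, CG12896 and Prx6c. Points are arrays and bars are the mean and SD of 3 arrays; in larvae the first separates the genotypes by 5.82 log2 units and the second by 0.020.

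Prx3, the mitochondrial peroxiredoxin, was modestly higher with the knockdown at both stages. Its signal was 2485, 2544 and 2388 in adult knockdown, against 2105, 2088 and 2161 in adult wild type. Larval knockdown arrays read 5597, 5661 and 6251, against 4731, 4172 and 4459 in the wild type. Every knockdown array was above every wild type array of its stage. The rise was 1.17-fold in adults (log2 0.22 ± 0.056; limma adjusted p = 0.0107) and 1.31-fold in larvae (log2 0.39 ± 0.056; limma adjusted p = 0.000313). The difference between these effects did not pass (log2 -0.17 ± 0.079, limma adjusted p = 0.157).

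TrxT, the thioredoxin known from the male germline, was lower with the knockdown in adults and higher in larvae. Its signal was 810, 760 and 877 in adult knockdown, against 1245, 1267 and 1385 in adult wild type. Larval knockdown arrays gave 743, 476 and 605, against 376, 469 and 379 in the wild type. The groups did not overlap at either stage, although larval knockdown array 2 and larval wild type array 2 were close. TrxT was 1.59-fold lower in adults (log2 -0.67 ± 0.14; limma adjusted p = 0.00378) and 1.47-fold higher in larvae (log2 0.56 ± 0.14; limma adjusted p = 0.0113). The log2 effect in adults minus that in larvae was -1.23 ± 0.20 (limma adjusted p = 0.00157). Of the 8 genes, only TrxT and Sod3 were called in opposite directions at the 2 stages.

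Testis markers moved beside TrxT. All 22 listed were measured, and 13 were called lower and 0 higher by limma in adult knockdown, with a median log2 change of -0.55. Of all tested probe sets 15.4% were called lower and 13.6% higher there. In larvae 9 were called higher and 0 lower by limma, with a median of 0.48, beside 15.0% higher and 10.7% lower of all tested probe sets. At an unadjusted p under 0.05 the counts were 15 lower and 2 higher in adults, and 11 higher and 0 lower in larvae. The summed signal of the 22 markers was 14351 to 16791 in adult knockdown, against 21747 to 24580 in adult wild type. It was 3201 to 4561 in larval knockdown, against 2532 to 2935 in larval wild type. In adults 4 marker means lay below the 40th percentile with the knockdown and 4 in the wild type, and in larvae 2 with the knockdown and 3 in the wild type. In adults the direction for the list rests on the scaling in part: under median centring 5 markers were called lower and 2 higher. Their part in the TrxT result was not tested.

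**Figure D3:**
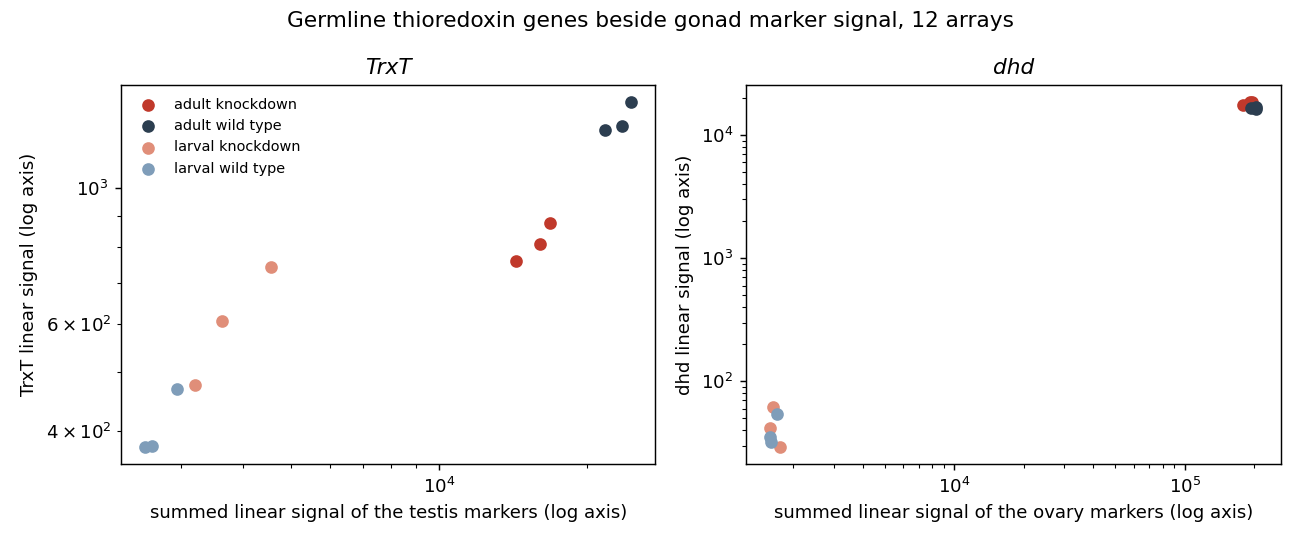
Left, TrxT signal (y) against the summed signal of 22 testis markers (x); right, dhd signal against the summed signal of 26 ovary markers; linear MAS5 signals on log axes, 12 arrays, coloured by group. TrxT and the testis markers are lower in adult knockdown than in adult wild type and higher in larval knockdown than in larval wild type, while dhd and the ovary markers separate the stages.

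The genes dhd and TrxT are neighbours on the X chromosome in the RefSeq annotation, and dhd encodes the thioredoxin of the ovary and early embryo. The dhd signal was 18499, 17476 and 18445 in adult knockdown, against 16647, 16889 and 16344 in adult wild type. In larvae it was 62.0, 42.1 and 29.3 with the knockdown, against 35.5, 54.1 and 32.4 in the wild type. Adults were bright on every array, and larvae stood near the 40th percentile, with 1 knockdown and 2 wild type values below it. The adult groups did not overlap, yet the log2 change of 0.13 ± 0.23 did not pass (95% interval -0.37 to 0.62; limma adjusted p = 0.719). Fitted on the adult arrays alone the adult change passed (limma adjusted p = 0.0120). The main fit uses 1 estimate of the spread for all 4 groups, so its SE does not measure the adult spread alone. The SD of the log2 signal was 0.046 in adult knockdown and 0.024 in adult wild type, against 0.54 in knockdown larvae and 0.40 in wild type larvae. In larvae the log2 change was 0.099 ± 0.23 (limma adjusted p = 0.797), and its sign turned under quantile normalization and when larval knockdown array 1 or larval wild type array 3 was left out. Of 26 ovary markers measured, 0 were called by limma in either direction in adults, and 1 was higher and 1 lower at an unadjusted p under 0.05. Median centring called 3 of them higher, and quantile normalization and centring on the tested probe sets 1 each. Their summed signal was 179173 to 195938 in adult knockdown, against 194320 to 203989 in adult wild type.

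Trxr1, the thioredoxin reductase that also keeps glutathione reduced in flies, was called in adults. Its signal was 2714, 2520 and 2466 in adult knockdown, against 2083, 2072 and 1912 in adult wild type. Knockdown larvae had 2324, 2250 and 2019, against 1748, 2108 and 2406 in the wild type. The adult groups did not overlap, and the larval groups did. Trxr1 was 1.27-fold higher in adult knockdown (log2 0.34 ± 0.098; limma adjusted p = 0.0203), and the larval log2 change was 0.084 ± 0.098 (limma adjusted p = 0.579). The adult call was lost without adult knockdown array 1 (limma adjusted p = 0.0753), adult knockdown array 2 (0.0510) or adult wild type array 3 (0.0809). The difference between stages was 0.26 ± 0.14 (limma adjusted p = 0.208). It passed under median centring (0.63, limma adjusted p = 0.0107). It also passed without larval wild type array 1 (0.38, limma adjusted p = 0.0254), where the larval change was -0.038.

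Sod2, the manganese superoxide dismutase of mitochondria, was called in larvae. Its signal was 6252, 5846 and 6589 in larval knockdown, against 5394, 5235 and 5865 in larval wild type. In adults it was 3671, 3860 and 4003 with the knockdown, against 3657, 3477 and 3556 in the wild type. The larval groups overlapped slightly and the adult groups did not. The larval rise was 1.13-fold (log2 0.18 ± 0.056; limma adjusted p = 0.0333), and the adult log2 change of 0.11 ± 0.056 did not pass (limma adjusted p = 0.168). Without larval knockdown array 1 or 3, or larval wild type array 1 or 2, the larval call was lost (limma adjusted p = 0.0725, 0.115, 0.0816 and 0.114). It was also lost without a variance trend (0.0946), on larval arrays alone (0.109) and with array weights (0.120). The log2 effects differed by -0.071 ± 0.079 (limma adjusted p = 0.566), and this sign turned under both centrings, to 0.30 with a pass under median centring (limma adjusted p = 0.0406). The adult change also passed under median centring (0.00102), centring on the tested probe sets (0.0390) and quantile normalization (0.0483), while the larval call was lost under both centrings (0.402 and 0.116).

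Sod3, the extracellular copper and zinc superoxide dismutase, had a pair of probe sets, of which the brighter represents the gene. The brighter one read 2590, 2675 and 2649 in adult knockdown, against 2084, 2134 and 2032 in adult wild type. In larvae it read 484, 459 and 561 with the knockdown, against 511, 679 and 694 in the wild type. Adult knockdown arrays were all higher, while in larvae knockdown array 3 overlapped wild type array 1. Sod3 was 1.27-fold higher in adults (log2 0.34 ± 0.11; limma adjusted p = 0.0307) and 1.25-fold lower in larvae (log2 -0.32 ± 0.11; limma adjusted p = 0.0458). The difference between stages was 0.66 ± 0.15 (limma adjusted p = 0.00997), and it was 0.80 without larval wild type array 1.

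The Sod3 calls were close to the threshold. The adult call was lost when any 1 of the 6 adult arrays was left out (limma adjusted p from 0.0619 to 0.0934). The larval call was lost when any array but larval knockdown array 3 or larval wild type array 1 was left out (limma adjusted p from 0.0606 to 0.156). Without a variance trend neither call passed (0.0606 in adults and 0.0857 in larvae), and the larval one was also lost without the filter (0.0558) and on larval arrays alone. Fitted on the adult arrays alone the adult call was kept. For the brighter probe set the SD of the log2 signal was 0.024 in adult knockdown and 0.035 in adult wild type. It was 0.15 in knockdown larvae and 0.25 in wild type larvae, and the main fit shares 1 estimate of the spread. The dimmer Sod3 probe set read 222, 274 and 261 in adult knockdown, against 250, 229 and 223 in adult wild type. It read 69.4, 160 and 170 in larval knockdown, against 87.0, 137 and 56.7 in larval wild type. These groups overlapped at both stages, with log2 changes of 0.11 ± 0.34 (limma adjusted p = 0.846) and 0.49 ± 0.34 (limma adjusted p = 0.332). Without larval knockdown array 1 the larval value was 0.91 and passed (limma adjusted p = 0.0382). The dimmer probe set thus gave the opposite sign to the brighter one in larvae. With the mean of both, the adult change was 0.22, the larval change 0.088 and the difference between stages 0.14, and none passed (limma adjusted p = 0.402, 0.776 and 0.757).

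Cat, the peroxisomal catalase, was lower in larval knockdown. Its signal was 2469, 2311 and 2203 in larval knockdown, against 2996, 3886 and 3628 in larval wild type. In adults it was 1906, 1927 and 2054 with the knockdown, against 2235, 2281 and 2319 in the wild type. All knockdown arrays lay below all wild type arrays of their stage. The larval fall was 1.50-fold (log2 -0.58 ± 0.081; limma adjusted p = 0.000258). Without larval wild type array 1 it was -0.69 on the log2 scale.

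The adult log2 change of Cat was -0.22 ± 0.081 and did not pass (limma adjusted p = 0.0661). It passed in 6 of 23 alternatives. These were without larval wild type array 1 (0.0105) or 2 (0.0385), under quantile normalization (log2 -0.33, 0.00444), on adult arrays alone (0.00396), with array weights (0.00538) and with an offset of 64 (0.0481). Under median centring its sign turned, to 0.064. The difference between stages was 0.37 ± 0.12 (limma adjusted p = 0.0411). This call was lost when any array but larval knockdown array 1 or larval wild type array 1 was left out (limma adjusted p from 0.0598 to 0.0864). Under quantile normalization the difference was 0.16 (limma adjusted p = 0.297), and the call was also lost without the filter (0.0519) and without a variance trend (0.0893).

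**Figure D4:**
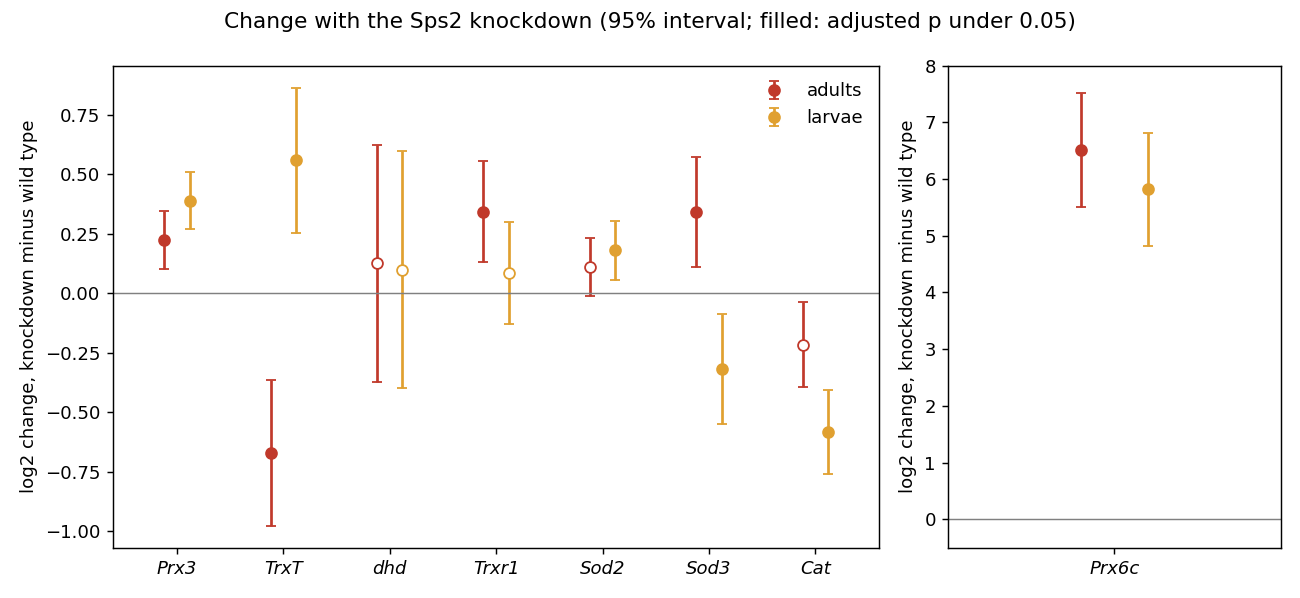
Log2 change, knockdown minus wild type (y axis), of each gene in adults and larvae, with its 95% interval from limma; filled points have an adjusted p under 0.05. Prx6c has a panel and scale of its own, its adult point resting on wild type values below the 40th percentile, and Sod3 is its brighter probe set. TrxT and Sod3 lie on opposite sides of 0 in adults and larvae.

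Between adult and larval wild type, 7 of the 8 genes were called. In adult wild type 3 genes were higher than in larval wild type (dhd, Sod3 and TrxT) and 4 lower (Prx6c, Prx3, Sod2 and Cat). Of all tested probe sets, 53.3% were called higher and 28.4% lower in this comparison, so a call was not particular to these genes. The log2 gap between 3′ and 5′ control probe sets also differed, at 2.42 in adult and 3.51 in larval wild type. Its part was not tested. The gene dhd was at least 409-fold higher in adults (limma adjusted p = 5.07e-12), with the 2 of 3 larval wild type values below their array's 40th percentile raised to it. Sod3 was 3.35-fold higher (log2 1.74 ± 0.11; limma adjusted p = 8.32e-09) and TrxT 3.20-fold higher (log2 1.68 ± 0.14; limma adjusted p = 1.70e-07). Testis markers moved the same way, with 15 of 22 called higher and 2 lower, as did all 26 ovary markers, and their part was not tested.

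Prx6c was at least 4.41-fold lower in adults (limma adjusted p = 1.99e-05), with adult wild type again taken at the 40th percentile. Prx3 was 2.10-fold lower (log2 -1.07 ± 0.056; limma adjusted p = 1.99e-09), Sod2 1.54-fold lower (log2 -0.62 ± 0.056; limma adjusted p = 3.43e-07) and Cat 1.53-fold lower (log2 -0.61 ± 0.081; limma adjusted p = 1.47e-05). Trxr1 had a log2 change of -0.034 ± 0.098, which did not pass (limma adjusted p = 0.750).

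The median log2 change of all tested probe sets between adult and larval wild type was 0.51 as deposited and -0.20 under median centring. Relative to the deposited median, the log2 change was 1.23 for Sod3 and 1.17 for TrxT. On the same footing it was -0.55 for Trxr1, -1.12 for Cat, -1.14 for Sod2 and -1.58 for Prx3. None is given for Prx6c and dhd, whose folds are bounds. Trxr1 was called lower in adults under median centring (-0.75, limma adjusted p = 5.33e-05) and under centring on the tested probe sets (-0.84). In the adult knockdown comparison, median centring moved the median of all tested probe sets to 0.24, against -0.044 as deposited.

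Genes related to the 8 were followed in 5 lists, with 33 of 40 genes tested. In adults 5 were called higher and 8 lower with the knockdown, and in larvae 6 higher and 4 lower. Over all tested probe sets 13.6% were called higher and 15.4% lower in adults, and 15.0% higher and 10.7% lower in larvae. The median log2 change of the 10 other thioredoxin-system genes was -0.16 in adults and 0.17 in larvae. The 3 other peroxiredoxin-system genes tested (Prx6a, Prx1 and the sulfiredoxin Srx) had 0 calls in adults by limma, and 0 at an unadjusted p under 0.05. Prx6a had a log2 change of -0.25 there (limma adjusted p = 0.256) and Srx of 0.16 (limma adjusted p = 0.260). In larvae Prx6a was lower (log2 -0.50; limma adjusted p = 0.0348), a call lost without larval knockdown array 3 (0.123) or larval wild type array 1 (0.0790) or 2 (0.132). The log2 changes of Prx6a, Prx1, Srx and Prx3 all lay between -0.56 and 0.39, far inside those of the Prx6c probe set.

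In the thioredoxin system, the thioredoxin-related gene prtp was higher at both stages. Its log2 change was 0.22 in adults (limma adjusted p = 0.00472) and 0.19 in larvae (limma adjusted p = 0.0125). Grx1, a glutaredoxin, was lower at both. Its log2 change was -0.26 in adults (limma adjusted p = 0.0345) and -0.43 in larvae (limma adjusted p = 0.00223). The adult Grx1 call was lost without adult knockdown array 1 (0.113) or 3 (0.0770) or adult wild type array 1 (0.117) or 2 (0.121), and its sign turned under median centring. Trx2, the widely expressed thioredoxin, was higher in adults (log2 0.20; limma adjusted p = 0.0167). That call was lost without adult knockdown array 1 (0.0591) or 3 (0.0615) or adult wild type array 1 (0.0658).

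CG8517 had the same pair of directions as TrxT. Its signal was 650, 642 and 764 in adult knockdown, against 990, 1110 and 1197 in adult wild type. Knockdown larvae had a signal of 125, 104 and 128, against 61.0, 95.7 and 88.3 in the wild type. The groups did not overlap at either stage. The log2 change was -0.68 in adults (limma adjusted p = 0.00797) and 0.56 in larvae (limma adjusted p = 0.0228), and the difference was -1.25 (limma adjusted p = 0.00337). The larval call was lost without larval knockdown array 1 (0.0613) or 3 (0.0721) or larval wild type array 1 (0.0607). CG8993 was higher in larvae (log2 0.16; limma adjusted p = 0.0287), a call lost without larval knockdown array 2 (0.0594) or 3 (0.0941) or larval wild type array 2 (0.0584) or 3 (0.0906).

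Of the other superoxide and peroxide genes, Irc, an immune-regulated catalase, was lower in adult knockdown (log2 -0.32; limma adjusted p = 0.00707). Rsod, a gene related to superoxide dismutase, was called higher there (limma adjusted p = 0.0122), but all 6 adult values lay below the 40th percentile and no fold is given. In larvae 0 of the 9 genes tested were called by limma and 1 was higher and 1 lower at an unadjusted p under 0.05, with the lowest p for Gtpx (log2 -0.14; limma adjusted p = 0.0907) and Irc (log2 0.17; limma adjusted p = 0.122). SelR and MsrA, which repair oxidised methionine, were called in adults in opposite directions. SelR was higher (log2 0.21; limma adjusted p = 0.00383) and MsrA lower (log2 -0.37; limma adjusted p = 0.0237). The SelR value is that of its brighter probe set. A dimmer SelR probe set read 274, 237 and 223 in adult knockdown, against 150, 164 and 173 in adult wild type, a wider gap in the same direction. The MsrA call was lost without any of the adult arrays except wild type array 2 (limma adjusted p from 0.0584 to 0.0986). In larvae neither passed, with log2 changes of 0.13 for SelR (limma adjusted p = 0.0521) and -0.019 for MsrA (limma adjusted p = 0.921).

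Of 9 tested genes of the CncC stress pathway and NADPH supply, 1 was called higher and 4 lower in adults, and 2 higher and 2 lower in larvae, beside 13.6% and 15.4% of all tested probe sets in adults and 15.0% and 10.7% in larvae. Keap1, the inhibitor of CncC, read 145, 170 and 149 in adult knockdown, against 278, 317 and 282 in adult wild type. It was 1.89-fold lower (log2 -0.92; limma adjusted p = 0.000834). The CncC gene cnc was lower in adults (log2 -0.25; limma adjusted p = 0.000787), a sign that turned under median centring, and in larvae (log2 -0.14; limma adjusted p = 0.0244). The larval cnc call was lost without larval knockdown array 2 (0.0885) or 3 (0.0621) or larval wild type array 3 (0.0764). GstD1, a glutathione transferase often used as a CncC readout, was higher in adults (log2 0.24; limma adjusted p = 0.00399) and lower in larvae (log2 -0.29; limma adjusted p = 0.00123). The GstD1 effects differed by 0.52 (limma adjusted p = 0.000518).

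Men, the NADP-dependent malic enzyme, was lower in adult knockdown (log2 -0.37; limma adjusted p = 0.000198). Idh, the NADP-dependent isocitrate dehydrogenase, was higher in larval knockdown (log2 0.14; limma adjusted p = 0.0106) and lower in adult knockdown (log2 -0.13; limma adjusted p = 0.0118). The adult Idh call was lost without adult wild type array 1 (0.0559), and its sign turned under median centring. Gclc, the catalytic subunit for glutathione synthesis, was also higher in larval knockdown (log2 0.22; limma adjusted p = 0.0227), a call lost without larval knockdown array 2 (0.0853) or larval wild type array 3 (0.0851).

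The genes whose log2 profiles over the 12 arrays were most like those of Prx6c, TrxT and dhd were ranked by Pearson's r. The 12 points fall into the 4 groups, so r largely reads the group means and is given as a description. For Prx6c they were CG8066 (r = 0.967), CG7900 (0.960) and Men-b (0.960). CG7900 averaged a log2 signal of 8.85 in knockdown adults and 4.40 in wild type adults, and of 10.6 in knockdown larvae and 7.22 in wild type larvae. In the same order the averages were 7.37, 5.42, 7.88 and 5.89 for CG8066, and 10.8, 10.3, 11.2 and 10.7 for Men-b. A high r here thus did not mean a gap as wide as that of Prx6c. For TrxT they were CG15306 (r = 0.987), CG2871 (0.985) and CG14763 (0.985), and for dhd nanos (0.999), Tl (0.999) and CG10254 (0.998).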

How the data were processed

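The deposited values are log2 signals. Per the submitters' processing notes MAS5 was used, with no version given. That they are log2 was read from the values, whose linear form had a trimmed mean of 500.01 to 500.02 on every array. Detection calls were not used here. For arrays, their number limits the precision, here 3 per group.

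Control probe sets (183) stayed out. A probe set was tested when 3 or more of the 12 arrays had it at or above that array's 40th percentile. Group means were fitted with limma 3.58.1 in R 4.3.3 with a variance trend, and p-values were adjusted by Benjamini-Hochberg over 12827 probe sets, separately for each comparison. The contrasts were the knockdown against the wild type in adults and in larvae, the difference of these effects, and adult against larval wild type. All 4 groups shared 1 estimate of the spread. Changes are log2 differences with their SE from the fit. Where a group mean lay below the 40th percentile, that percentile was used in its place and the fold is a lower bound.

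The brightest probe set represented a gene. Symbols came from the platform annotation, which gave 1 symbol to 13647 probe sets, several to 402 and none to 4720. Chromosome neighbours came from RefSeq. Members, related lists and markers were chosen with earlier results of these data known. All members were named, with up to 4 called genes of each related list and comparison by lowest adjusted p, or the 2 with the lowest p where none was called, and the 3 profiles most like Prx6c, TrxT and dhd. The fit was tested on simulated data with independent noise and effects added to adult knockdown alone. Differences in scaling between arrays were not simulated, so that test does not bear on them or on the calls for single genes. The labels call the replicates biological, with no word on separate cultures. The p-values therefore rest on the spread between these samples, pooled over the 4 groups and moderated by limma, and not on the spread of the compared groups alone. Alternatives covered scaling, filter, offset, variance model, array weights, replicate block, probe-set averaging and leaving out each array.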

Additional observations from a re-analysis of the deposited data

Results flagged for a closer look

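For 3 genes the knockdown effect differed between adults and larvae by limma's test of the difference (adult effect minus larval effect, log2, 3 arrays a group). The difference was -1.23 for TrxT (adjusted p = 0.00157), and no alternative ended that call. It was 0.66 for Sod3 (adjusted p = 0.00997), measured on the brighter of its probe sets, and it did not pass with the mean of both. It was 0.37 for Cat (adjusted p = 0.0411), where both effects were below 0 as deposited, and 14 of 22 alternatives ended that call, with 0.16 under quantile normalization (adjusted p = 0.297).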

How the results depend on the processing

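Over 36 results on single genes and 806 alternative values, 723 kept their direction and side of the threshold, 52 fell below it, 15 rose above it and 16 changed sign. Adult Prx6c, Prx3 and TrxT, and larval Prx6c, Prx3, TrxT and Cat, kept their calls under every alternative run. Signals near the 40th percentile limit the low wild type Prx6c and larval dhd values.

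Without 1 array each, the larval dhd change ran from -0.17 (larval knockdown array 1) to 0.37, and was -0.047 without larval wild type array 3. It was -0.0059 under quantile normalization. The dhd difference between stages ran from -0.24 (larval knockdown array 3) to 0.30, with -0.20 without larval wild type array 2. Trxr1 in adult against larval wild type ran from -0.16 to 0.074 (larval wild type array 3), with 0.0055 without adult wild type array 3, and was 0.0038 under quantile normalization. Larval Trxr1 ran from -0.038 (larval wild type array 1) to 0.19, and was -0.0023 under median centring. The probe set shared by Prx6b, CG12896 and Prx6c ran in larvae from -0.090 (larval wild type array 1) to 0.080, with -0.030 without larval knockdown array 2. It was -0.067 under median centring and -0.022 under centring on the tested probe sets, an alternative chosen after seeing the data. Under median centring adult Cat became 0.064, and the difference between stages became 0.20 for Prx3 and 0.30 for Sod2, which was 0.040 under the other centring. The Prx6c difference became -1.03 with an offset of 64, and larval Sod3 became 0.088 with the mean of its probe sets. The causes were not tested.

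The 3 genes with a difference between stages became 5 under median centring. With 1 array left out, the 6 genes called in larvae became 4 or 5 in each of the 12 cases, and the 3 with a difference between stages ranged from 2 to 4. The 5 genes called in adults ranged from 3 to 6 when 1 array was left out, with 3 called without adult knockdown array 1 or 2 or adult wild type array 3. Of the related genes, 21 in place of 13 were called in adults on adult arrays alone. In larvae 10 became 5 without a variance trend, 2 on larval arrays alone, 4 with array weights, and 6 to 10 when 1 array was left out, the fewest without larval knockdown array 2. The alternative with the arrays of 1 stage alone was not run for the comparisons that span both stages.

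Over all tested probe sets in adults, 1742 were called higher and 1975 lower, against 4666 and 779 under median centring, 2062 and 1738 under quantile normalization, 2455 and 1596 under centring on the tested probe sets, and 2878 and 3312 on adult arrays alone. In larvae 1918 and 1369 became 1189 and 1690 under median centring and 1602 and 1606 under the other centring. For adult against larval wild type, 6841 and 3645 became 4525 and 5773 under median centring, 4277 and 6104 under the other centring, and 5435 and 4633 under quantile normalization. For the difference of effects, 1009 and 1656 became 3953 and 716, 1726 and 1208, and 1333 and 1436 under median centring, the other centring and quantile normalization.

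Replicate numbers did not pair the arrays: the correlation of same-numbered deviations was between -0.09 and 0.02. With the replicate number as a block, 1479 probe sets were called higher and 1702 lower in adults, the adult Trxr1 change kept its value of 0.34 but missed the threshold (limma adjusted p = 0.0538), and so did the Cat difference between stages (0.0858).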
